A study of Mus musculus with 2 samples.

Results

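The LRPPRC-binding sites on the mRNAs mt-Co1 and mt-Co2 were analysed, together with the stretches of both genes that had no site. Every site on the plus strand of the mitochondrial genome that overlapped the annotated body of mt-Co1 or mt-Co2 by at least 1 nt was taken. This gave 3 of the 552 sites in the list, 2 on mt-Co1 and 1 on mt-Co2, out of 48 sites on the mitochondrial genome and 32 on its 10 plus-strand mRNAs.

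The study mapped RNase footprints of LRPPRC in heart mitochondria of control and Lrpprc knockout mice, which were not analysed here. It also mapped the RNA contacts of LRPPRC in mouse embryonic fibroblasts (MEFs) by PAR-CLIP. In this method cells take up 4-thiouridine (4TU), which crosslinks to a bound protein under ultraviolet light and is then read as C where the reference has T, so that a contact can be seen at a U and at no other base. The series has 1 experimental and 1 control sample, both of MEFs, and the only MEFs the paper describes are from Lrpprc-FLAG transgenic mice. Both samples are listed with 2 µg/ml doxycycline for 72 h, to induce LRPPRC-FLAG. The paper gives this induction after HeLa Tet-On cells and does not say whether it applied to the MEFs. The tagged protein was recovered with anti-FLAG beads, and the list of sites made from the experimental sample was used. The control's sites were not analysed here, and the labels do not say how the control differed. The contacts mapped are thus those of a tagged LRPPRC, which was induced if the doxycycline treatment applied to the MEFs. With 1 library there was no spread between replicates, and the values below are descriptions with no test. A list of positions holds no expression values, so the cell type could not be checked against its markers.

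Cytochrome c oxidase, complex IV of the respiratory chain, passes electrons to oxygen, and its catalytic core is encoded in mitochondrial DNA. mt-Co1 encodes the subunit that holds the haem and copper centre where oxygen is reduced, and mt-Co2 encodes the subunit that takes electrons from cytochrome c. Both mRNAs are cut from 1 long precursor, in which tRNAs mark most of the ends of the mRNAs. LRPPRC is a pentatricopeptide repeat protein that forms a complex with SLIRP and is known for keeping mitochondrial mRNAs stable and polyadenylated. Loss of LRPPRC function is known for a deficiency of cytochrome c oxidase.

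The body of mt-Co1 (ENSMUSG00000064351.1, chrM:5328-6872, mm10, plus strand) was 1545 nt long, which is 515 codons with the stop codon. The body of mt-Co2 (ENSMUSG00000064354.1, chrM:7013-7696, plus strand) was 684 nt long, which is 228 codons. In the annotation each body runs from the ATG to the TAA of the reading frame, so that every covered or uncovered base of the genes was coding sequence. The genes are separated by 140 nt that hold mt-Ts1 (chrM:6870-6938, minus strand), but for 3 nt that overlap the mt-Co1 stop codon on the other strand, and mt-Td (chrM:6942-7011, plus strand). mt-Ty lies before mt-Co1 on the minus strand and mt-Tk follows mt-Co2 on the plus strand.

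The sequences that end both frames are shown first, since neither frame had a site on its first or its last base. They are given 5′ to 3′ from the reference mitochondrial sequence of the mm10 build (RefSeq), with each T, the base at which a crosslink could be read, in capitals. The first pair are the 5′ ends from the start codon to the base before the first site (chrM:5328-5399 and chrM:7013-7048), and the second pair are the 3′ ends from the base after the last site to the stop codon (chrM:6815-6872 and chrM:7579-7696).
mt-Co1 5′ end: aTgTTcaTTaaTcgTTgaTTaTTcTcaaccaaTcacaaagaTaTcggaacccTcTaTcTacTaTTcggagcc
mt-Co2 5′ end: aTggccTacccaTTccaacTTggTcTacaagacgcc
mt-Co1 3′ end: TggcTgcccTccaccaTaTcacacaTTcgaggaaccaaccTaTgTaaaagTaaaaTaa
mt-Co2 3′ end: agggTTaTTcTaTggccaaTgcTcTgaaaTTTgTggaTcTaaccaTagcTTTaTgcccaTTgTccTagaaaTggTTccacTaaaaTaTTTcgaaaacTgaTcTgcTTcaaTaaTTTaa
The 72 nt of the mt-Co1 5′ end held 23 T and the 36 nt of the mt-Co2 5′ end held 8. The 58 nt of the mt-Co1 3′ end held 12 T and the 118 nt of the mt-Co2 3′ end held 41.

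The edges of the 3 sites are shown because they set where each covered stretch begins and stops. Each sequence has 25 nt on either side of the edge, and the bases inside the site are in capitals. The mt-Co1 sites lay at chrM:5400-5761 and chrM:6531-6814, and the mt-Co2 site at chrM:7049-7578.
mt-Co1 first site, start: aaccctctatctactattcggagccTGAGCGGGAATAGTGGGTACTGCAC
mt-Co1 first site, end: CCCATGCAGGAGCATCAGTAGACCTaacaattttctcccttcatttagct
mt-Co1 second site, start: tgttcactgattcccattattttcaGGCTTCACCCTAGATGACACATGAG
mt-Co1 second site, end: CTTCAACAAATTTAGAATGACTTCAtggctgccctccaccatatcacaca
mt-Co2 site, start: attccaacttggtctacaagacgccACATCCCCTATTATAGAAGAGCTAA
mt-Co2 site, end: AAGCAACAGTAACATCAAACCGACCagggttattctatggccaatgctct
The base before the site was C for the first mt-Co1 site, A for the second and C for the mt-Co2 site. The sites themselves opened with T, G and A, so that no single base marked the start of all 3.

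The second mt-Co1 site is short enough to be shown whole, with each T in capitals. It is the covered stretch nearest to the 3′ end of mt-Co1.
mt-Co1 second site: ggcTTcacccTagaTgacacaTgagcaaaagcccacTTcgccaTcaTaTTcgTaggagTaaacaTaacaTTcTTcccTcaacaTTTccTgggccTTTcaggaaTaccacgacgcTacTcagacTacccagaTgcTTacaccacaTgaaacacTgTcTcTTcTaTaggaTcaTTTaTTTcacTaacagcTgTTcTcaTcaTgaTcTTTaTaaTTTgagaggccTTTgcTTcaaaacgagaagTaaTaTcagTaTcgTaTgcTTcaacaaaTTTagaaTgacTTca
Its 83 T were spread along the site, and the longest stretch without a T was 14 nt.

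Sites covered a larger share of mt-Co2 than of mt-Co1. On mt-Co1, 646 of 1545 bases lay in a site, a share of 41.8% (95% Wilson interval 39.4 to 44.3%). On mt-Co2, 530 of 684 bases did, a share of 77.5% (74.2 to 80.5%). The difference was 35.7 percentage points (95% Newcombe interval 31.6 to 39.5). These intervals cover counting error only and take each base as independent of its neighbours, although a site covers many in a row. Over both genes 1176 of 2229 bases were covered, 52.8%.

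The shares differed although the number of sites per length did not differ much. mt-Co1 had 1.29 sites per 1000 nt and mt-Co2 had 1.46. All 3 sites lay wholly inside their gene. Neither gene had a site on the opposite strand, where the last mitochondrial site ended at position 2341, before both genes. The first mt-Co1 site was 362 nt wide and the second 284 nt, with a median of 323 nt, whereas the only mt-Co2 site was 530 nt wide. Among the 48 mitochondrial sites, whose median width was 147.5 nt, the mt-Co2 site ranked 3rd by width and the mt-Co1 sites 7th and 8th. The most common width in the whole list was 75 nt, which 130 of the 552 sites had, and each of the 3 sites was wider than that. Because the sites lay wholly inside their gene, raising the overlap needed to count a site to 50% of its width could not change their number.

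**Figure D1:**
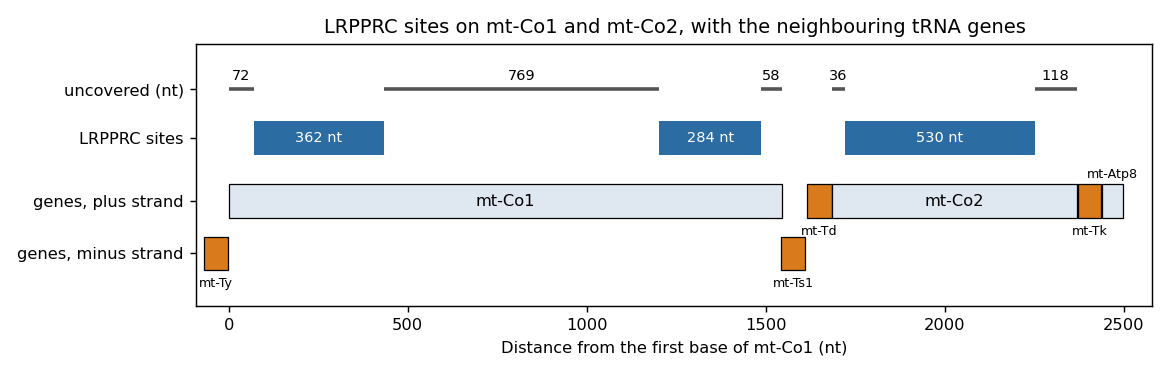
Map of mt-Co1 and mt-Co2 drawn to scale, with the distance from the first base of mt-Co1 in nt on the x axis. Blue bars are LRPPRC sites with their widths (362, 284 and 530 nt), grey lines are uncovered stretches of the genes with their lengths (72, 769, 58, 36 and 118 nt), pale bars are mRNA genes (mt-Atp8 shown in part) and orange bars are tRNA genes, which no site overlaps.

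In the reading frame of mt-Co1, the first site ran from base 73 to base 434, which is from codon 25 to codon 145. The second ran from base 1204 to base 1487, from codon 402 to codon 496. They held 120 and 94 whole codons. Between them lay an uncovered stretch of 769 nt (chrM:5762-6530), 49.8% of the gene, which held 256 whole codons. It was uncovered in the PAR-CLIP list only. By RNase footprinting in hearts, the paper describes some LRPPRC footprints as enriched along all of the Co1 mRNA. In mt-Co2 the site ran from base 37 to base 566, from codon 13 to codon 189, and held 176 whole codons without a break. The middle of the frames therefore differed most. When each frame was cut into 3 equal parts, the covered shares from the 5′ to the 3′ part were 70.3%, 0% and 55.1% in mt-Co1. In mt-Co2 they were 84.2%, 100% and 48.2%.

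Both frames were covered more in the 5′ part than in the 3′ part when cut into 2. In mt-Co1 the covered share was 46.9% of bases 1 to 772 and 36.7% of bases 773 to 1545. In mt-Co2 it was 89.5% of bases 1 to 342 and 65.5% of bases 343 to 684. On mt-Co1 this order rested on the first site, since without it the 3′ part alone held a site. Cut into 10 parts, mt-Co1 had 2 parts that were wholly covered and 4 that had no covered base. mt-Co2 had 7 wholly covered parts in a row and 1 without a covered base, the last.

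The first site began 72 nt from the start of mt-Co1 and 36 nt from the start of mt-Co2. The last site base was 58 nt from the end of mt-Co1 and 118 nt from the end of mt-Co2. The 2 genes thus opposed each other, mt-Co2 having its site nearer to the start codon and mt-Co1 nearer to the stop codon. The mt-Co1 mRNA of mammals keeps the stretch opposite mt-Ts1 after its stop codon. When its end was placed before mt-Td, an end chosen after the data were examined, the distance to the last site was 127 nt, so the order of the 2 mRNAs at the 3′ end depended on which end was used.

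The junction of the 2 mRNAs was free of sites. From the last base of the second mt-Co1 site to the first base of the mt-Co2 site there were 234 uncovered nt (chrM:6815-7048). Of these, 58 were in mt-Co1, 140 were between the gene bodies and 36 were in mt-Co2, and they held 67 U in all. Before mt-Co1, the nearest plus-strand site ended at position 5091, which left a gap of 308 nt. After mt-Co2, the next site began at position 7766, the first base of mt-Atp8, which left a gap of 187 nt. mt-Ty, mt-Ts1, mt-Td and mt-Tk had 0 bases in a site on their own strand and 0 on the opposite strand. The paper reports no PAR-CLIP sites in tRNAs, but site bases in the other tRNA genes were not counted here. The last 12 nt of mt-Nd2, which ends at position 4951, were uncovered. The site that ended at position 5091 thus lay between mt-Nd2 and mt-Ty. The last minus-strand site of the mitochondrial genome ended at position 2341, before all of them.

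Because a contact is read at U, the base content of the covered and uncovered parts was compared. U made up less of the covered than of the uncovered bases in both genes, but by an amount within the intervals. In mt-Co1, 28.5% of covered and 32.1% of uncovered bases were U, a difference of -3.66 points (95% Newcombe interval -8.24 to 1.00). In mt-Co2 the shares were 26.4% and 31.8%, a difference of -5.40 points (-13.9 to 2.47). Taken as the plain mean over sites against the mean over uncovered stretches, the difference was 0.00828 points in mt-Co1, so its direction was not held, and -2.07 points in mt-Co2. With 10 nt trimmed from each site edge the mt-Co2 difference was -2.25 points, and without the first site the mt-Co1 difference was -1.70 points.

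The U of both genes were then counted in and outside sites. Of the 473 U of mt-Co1, 289 (61.1%) lay outside sites, against 49 of the 189 U of mt-Co2 (25.9%). The 769-nt stretch of mt-Co1 alone held 254 U, 33.0% of its bases (95% Wilson interval 29.8 to 36.4%), against 27.9% (23.5 to 32.7%) in the first mt-Co1 site, 29.2% (24.2 to 34.8%) in the second and 26.4% (22.8 to 30.3%) in the mt-Co2 site. Its longest run without a U was 16 nt, shorter than the 22 nt found inside the first mt-Co1 site. It had 24 runs of 3 or more U, which is 3.12 per 100 nt, against 8 runs (2.21 per 100 nt) in the first mt-Co1 site, 8 (2.82 per 100 nt) in the second and 5 (0.943 per 100 nt) in the mt-Co2 site. In its share of U and in runs of 3 or more U per 100 nt, the 769-nt stretch was above all 3 sites, but the intervals of the U shares overlapped. Its longest run without a U was longer than the 14 nt of the second mt-Co1 site and the 14 nt of the mt-Co2 site. Runs of 4 or more U numbered 6 in the stretch, against 5 in the first mt-Co1 site, 0 in the second and 1 in the mt-Co2 site. The list gave no read depth, so that binding and read depth cannot be told apart for an uncovered base.

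**Figure D2:**
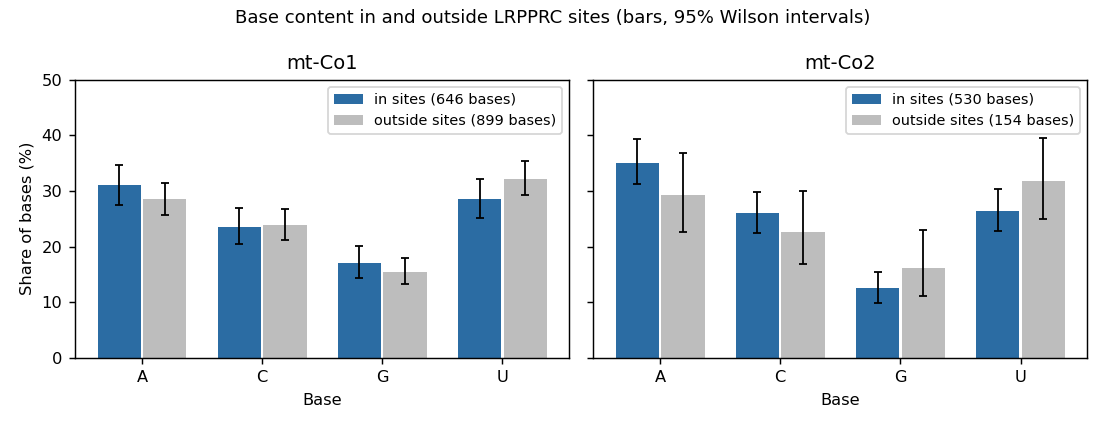
Share of A, C, G and U among bases in sites (blue) and outside sites (grey) of mt-Co1 and mt-Co2, with 95% Wilson intervals. U was 28.5% against 32.1% in mt-Co1 and 26.4% against 31.8% in mt-Co2, and the intervals of each pair overlap.

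The range along the frames was wider than these differences. In windows of 50 nt, the 10 wholly covered windows of mt-Co1 ranged from 12 to 42% U with a median of 33%, and the 17 wholly uncovered windows from 18 to 44% with a median of 32%. The 10 wholly covered windows of mt-Co2 ranged from 16 to 36% U with a median of 26%, and its 2 wholly uncovered windows had 30 and 38.2% U, with a median of 34.1%. The windows at the ends of 2 of these ranges are shown with each T in capitals, since they give the span of U content within uncovered sequence of mt-Co1 and within covered sequence of mt-Co2. They are the uncovered windows of mt-Co1 with the most U (chrM:6328-6377) and the least (chrM:5928-5977), and the covered windows of mt-Co2 with the most U (chrM:7213-7262) and the least (chrM:7513-7562).
mt-Co1 uncovered, most U: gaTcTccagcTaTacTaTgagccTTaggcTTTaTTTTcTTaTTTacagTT
mt-Co1 uncovered, least U: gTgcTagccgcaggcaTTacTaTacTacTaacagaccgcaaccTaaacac
mt-Co2 covered, most U: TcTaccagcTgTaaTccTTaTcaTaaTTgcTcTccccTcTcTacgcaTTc
mt-Co2 covered, least U: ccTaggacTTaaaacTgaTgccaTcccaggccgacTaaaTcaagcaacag
The uncovered windows of mt-Co1 shown were 44 and 18% U, and the covered windows of mt-Co2 were 36 and 16% U.

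**Figure D3:**
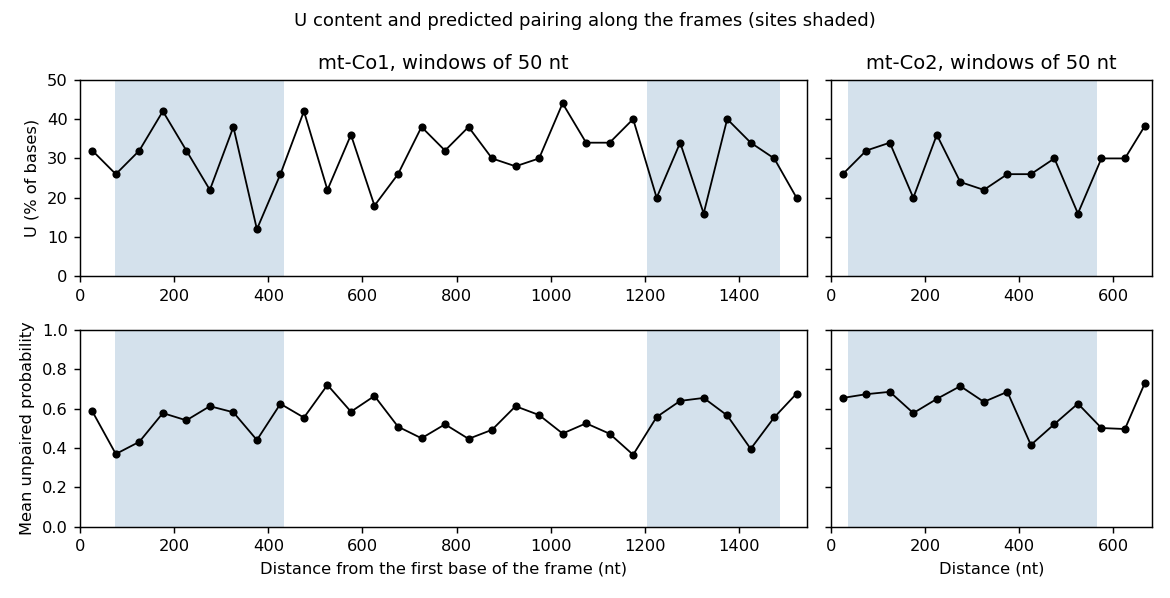
U content (top, % of bases) and mean predicted unpaired probability (bottom) in windows of 50 nt along the frames of mt-Co1 (left) and mt-Co2 (right), against the distance from the first base of the frame in nt. The last window of each frame is shorter, and shading marks the LRPPRC sites. U ranged from 12 to 44% in mt-Co1, and shaded and unshaded windows overlap.

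Codon position was then separated, since the bases of a reading frame are not alike. At the middle position of the codon, where U is most frequent in genes of membrane proteins, the share of U was 38.9% in sites and 41.5% outside in mt-Co1, and 39.0% and 35.3% in mt-Co2. At position 1 of the codon in mt-Co2, U made up 16.4% of 177 bases in the site and 31.4% of 51 bases outside, a difference of -15.0 points (95% Newcombe interval -29.4 to -2.34). At position 3 in mt-Co1, A made up 50.9% of bases in sites and 39.5% outside, a difference of 11.4 points (2.69 to 19.9). These were the only 2 of 32 comparisons of covered with uncovered bases, by base, gene and codon position, whose interval left out 0, and the intervals were not adjusted for their number.

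**Figure D4:**
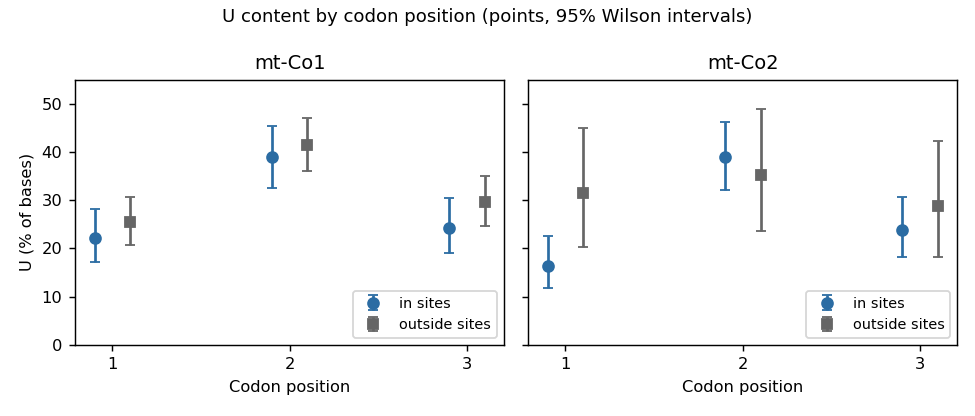
Share of U (% of bases) at codon positions 1, 2 and 3 in sites (blue circles) and outside sites (grey squares) of mt-Co1 and mt-Co2, with 95% Wilson intervals. At position 1 of mt-Co2 the share was 16.4% in the site and 31.4% outside, and at the other positions the points lie closer together.

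Between the genes, the covered sequence differed most in G. G made up 17.0% of the covered bases of mt-Co1 and 12.5% of those of mt-Co2, a difference of 4.58 points (0.475 to 8.58). Over the whole genes, A made up 29.5% of mt-Co1 and 33.8% of mt-Co2, a difference of -4.26 points (-8.51 to -0.103). The other 10 of the 12 comparisons between the genes, by base and by covered, uncovered or all bases, had intervals that held 0. U made up 30.6% of mt-Co1 and 27.6% of mt-Co2, so the more covered mRNA was the one with the smaller share of U.

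Words of 4 nt were counted in both genes. They were picked because they stood out in an earlier look at these same sites, so their counts are no independent evidence. A word had 640 possible places in the sites of mt-Co1 and 890 outside, and 527 in the site of mt-Co2 but 148 outside. UCCC occurred 6 times in the mt-Co2 site and 0 times in its uncovered sequence, but 3 times in and 5 times outside the sites of mt-Co1. AGUC occurred 3 times in the mt-Co2 site and 1 time in the mt-Co1 sites, and 0 times outside the sites of either gene. CACU occurred 6 times in and 6 times outside the mt-Co1 sites, and 2 times in and 1 time outside the mt-Co2 site. UGGU was found 0 times in and 2 times outside the mt-Co1 sites, and 1 time in and 2 times outside the mt-Co2 site. AGUG occurred 1 time in and 3 times outside the mt-Co1 sites and was not found in mt-Co2, and AGAG occurred 1 time in the sites of each gene and 0 times outside. These counts are too small to order the words.

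Predicted pairing gave a small difference in mt-Co2 and almost none in mt-Co1. The mean probability that a base was unpaired, predicted from sequence alone on a scale of 0 to 1, was 0.540 in the sites of mt-Co1 and 0.542 outside, a difference of -0.00161 that changed sign with a shorter folding window (0.0102). In mt-Co2 it was 0.625 in the site and 0.554 outside, a difference of 0.0711, which was 0.0352 when the gene was folded alone. The 769-nt stretch of mt-Co1, at 0.536, lay between the first site, at 0.521, and the second, at 0.564. The uncovered ends also differed among themselves, from 0.525 at the 5′ end of mt-Co1 to 0.635 at its 3′ end. In windows of 50 nt the medians were 0.572 for covered and 0.526 for uncovered windows of mt-Co1, and 0.642 and 0.613 for those of mt-Co2, of which 2 were uncovered.

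Copies of both genes in the nuclear genome could receive reads of these mRNAs, and the authors masked such copies before alignment. In the reference nuclear genome, mt-Co2 had a copy identical over all 684 nt on chromosome 1 (chr1:24614882-24615565) and mt-Co1 had one of 97.6% identity over all 1545 nt on chromosome 2 (chr2:22588103-22589647). Bases 1063 to 1545 of mt-Co1 had a second copy of 99.8% identity on chromosome 1 (chr1:24615706-24616188). Other, more diverged copies lay on chromosomes 9 and 11, and chromosome 2 also held a copy of mt-Co2 of 95.9% identity. None of the 552 sites lay in any of these copies, which had to be so for any copy that was masked. The nearest site to the mt-Co1 copy on chromosome 2 lay 443 nt beyond its end, at chr2:22590091-22590155, whereas the nearest to the chromosome 1 copies lay at least 11800367 nt away.

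Covered and uncovered stretches were set against their copies. The mt-Co2 site, both uncovered ends of mt-Co2, the second mt-Co1 site and the 3′ end of mt-Co1 were each identical to the chromosome 1 copy over their whole length. The first mt-Co1 site had its only copy on chromosome 2, with 4 differing bases in 362 (98.9% identity). The 769-nt uncovered stretch had 22 differing bases from the chromosome 2 copy (97.1% identity), and 141 of its bases (18.3%) also aligned to the chromosome 1 copy with 1 differing base. Covered and uncovered sequence thus both had near-identical copies. Which positions the mask held was not given in the sources used here, and its part in the coverage was not tested.

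Against the other 8 plus-strand mRNAs, both genes had few and wide sites that began away from the start codon. The other mRNAs had 29 sites of 58 to 688 nt, with a median of 170 nt, and 5615 of their 8604 bases were covered, 65.3% (95% Wilson interval 64.2 to 66.3%), a share between those of mt-Co1 and mt-Co2. In the order of covered share, mt-Co2 was 3rd of 10, between mt-Nd4l/Nd4 (78.2%) and mt-Nd1 (77.4%). mt-Co1 was 9th, between mt-Nd3 (43.4%) and mt-Nd5 (38.3%). mt-Atp8/Atp6, which begins after mt-Tk, was highest at 96.4%. mt-Co3, the mRNA of the remaining mitochondrial subunit of complex IV, lay between them at 63.1%, with 3 sites and a median width of 170 nt. The 3 complex IV mRNAs thus did not share a level of coverage.

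In the number of sites per 1000 nt, mt-Co1 (1.29) and mt-Co2 (1.46) were the lowest of the 10 mRNAs. mt-Co3 had 3.83 and mt-Nd3, the highest, had 5.75. In median width mt-Co2 was 1st and mt-Co1 3rd, and mt-Nd3 was lowest at 75.5 nt. mt-Co2 was the only mRNA of the 10 with a single site. The 769-nt stretch of mt-Co1 was the longest uncovered stretch of any of them, followed by 684 nt in mt-Nd5, whereas the 118 nt of mt-Co2 ranked 9th, above the 26 nt of mt-Atp8/Atp6.

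At the 5′ end, mt-Co1 (72 nt) and mt-Co2 (36 nt) had the greatest distances from the first base of the frame to a site. They were followed by mt-Co3 (22 nt) and mt-Nd1 (15 nt), and the other 6 mRNAs had a site on the first base. The first 3 places were thus those of the complex IV mRNAs. At the 3′ end mt-Cytb had the greatest distance (234 nt), followed by mt-Co2 (118 nt), mt-Nd3 (62 nt), mt-Co1 (58 nt) and mt-Co3 (55 nt), and mt-Nd5 had a site on its last base.

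In the other mRNAs, when pooled, covered bases were 29.3% and uncovered bases 29.4% U, a difference of -0.145 points (95% Newcombe interval -2.18 to 1.86). The intervals of mt-Co1 (-8.24 to 1.00) and mt-Co2 (-13.9 to 2.47) both held this value. By gene, 6 of the 10 mRNAs, mt-Co1 and mt-Co2 among them, had less U in sites than outside. mt-Nd1 had the lowest difference at -9.56 points and mt-Nd3 the highest at 7.64 points.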

How the data were processed

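MEFs from Lrpprc-FLAG transgenic mice were analysed by PAR-CLIP, and the sites of 1 library, the experimental sample, were used. Per the study's methods, the authors used random barcodes to drop PCR duplicates, trimmed reads with cutadapt 1.10 and aligned them with Bowtie 1.12, reporting 1 alignment per read, to mm10 with nuclear copies of mitochondrial DNA masked. BMix then called crosslinked regions from T-to-C changes on each strand, above a minimum coverage and posterior probability. The deposited list gives positions only, since its score and name columns, as deposited, hold only 0. The depth behind a site is therefore unknown.

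Here 0-based starts were converted to 1-based positions. Gene bodies were taken from GENCODE mouse release 21 and sequence from the RefSeq mm10 build. Overlapping genes of 1 mRNA (mt-Atp8 with mt-Atp6, mt-Nd4l with mt-Nd4) were joined. Pairing was predicted with RNAplfold 2.7.2 (window 150, span 100) on the plus strand, and copies were sought with blastn 2.17.0 (e-value 1e-20). Other steps used Python 3.11.15, NumPy 2.4.6, SciPy 1.17.1 and matplotlib 3.10.9. The coverage code was tested on simulated data. Every site and uncovered stretch of both genes is named, with the neighbouring tRNA genes, mt-Co3, and the neighbours and extremes in each order. The genes, words and comparisons were chosen with earlier results of these data known. The alternatives were another overlap, trimmed or joined sites, windows, another reading of starts, other divisions of the frame, other folding settings and leaving out the widest site.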

Additional observations from a re-analysis of the deposited data

How the results depend on the processing

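Of 66 alternatives, 32 could not change a value here, since they dropped, joined, cut or added no site or left the edge in question alone. Of the others, 11 left the value within its counting interval. Counted in windows of 50 nt touched by a site, coverage was 45.2% for mt-Co1 and 85.7% for mt-Co2. With 10 nt trimmed from each site edge it was 39.2% for mt-Co1, the 5′ distances were 82 nt (mt-Co1) and 46 nt (mt-Co2), and the 3′ distances 68 and 128 nt. With starts read as 1-based, median widths were 324 and 531 nt and 5′ distances 71 and 35 nt. Without its widest site, mt-Co1 was 18.4% covered and mt-Co2 0%, and the 5′ minus 3′ covered share of mt-Co1 was -36.7 points in place of 10.2. The first minus the last part of a frame cut into 3 differed by 15.1 points in mt-Co1 and 36.0 in mt-Co2, whose value by 2 parts was 24.0. The mean over stretches turned the U difference of mt-Co1 to 0.00828 points. The unpaired difference of mt-Co1 was 0.0102 with a folding window of 70 and span of 40, -0.0111 with the gene folded alone and 0.0285 without the widest site; that of mt-Co2 was 0.0891 and 0.0352 under both foldings. With the mRNA end before mt-Td, added after the data were examined, the 3′ distance of mt-Co1 was 127 nt. Leaving out the only mt-Co2 site gave no value for differences between covered and uncovered bases. The causes of these shifts were not tested. No paired analysis was possible because sites of 1 library were used.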

Other observations

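All 3 sites on mt-Co1 and mt-Co2 began at position 1 of a codon and ended at position 2. On the other plus-strand frames, 11 of 25 site starts were at position 1, 8 at position 2 and 6 at position 3, and of 28 site ends 10, 11 and 7 were at positions 1, 2 and 3. None of the 39 plus-strand mitochondrial sites was preceded by G. G made up 16.1% of mt-Co1 and 13.3% of mt-Co2, and its share of the whole plus strand is not given here. These counts were taken after the sites were seen and were not tested.

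The uncovered middle of mt-Co1 and the covered body of mt-Co2 are described from 1 library with no replicate, no depth per site and no control sites. An uncovered stretch is one where no site was listed, which bounds neither binding nor depth there. Intervals cover counting error only. The sequence copies in the nuclear genome were read from the reference and not from these cells.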
